A study of Mus musculus with 8 samples.

Results

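The genes described here encode components of the lectin pathway of complement and of the pore that ends the complement cascade. They are Mbl1, Mbl2, Masp1, Masp2, C2, C6, C8a, C8b, C8g and C9, 10 of the 19540 genes measured. Each had exactly 1 probe set, so the rule that takes the brightest probe set of a gene made no choice among them. The genes were chosen by their place in the pathway, with their measured differences in this same comparison already known, and probe sets were to be selected on mean brightness over the 8 arrays. The number of them that changed is therefore a description and not independent evidence about complement. Liver gene expression was compared on 8 Affymetrix arrays, 4 labelled WT and 4 labelled HNF6KO. HNF6 is the homeodomain transcription factor encoded by Onecut1. All mice were C57B/6 males aged 12 weeks, fed normal chow without further treatment, and livers were taken at ZT10, which is 10 h after lights on and is given as 5 pm. The sources used here do not state how HNF6 was removed, in which cells, or whether each array held RNA of a separate animal, and p-values cover only the spread between these arrays, which may be technical.

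Complement is a set of plasma proteins made mostly by hepatocytes. In the lectin pathway, mannose-binding lectins and related proteins recognise sugars on microbes and activate the MASP proteases, which cut C4 and C2 to form an enzyme that amplifies the cascade. In the terminal pathway, C5b binds C6, C7 and C8, and C9 then polymerises into a ring that perforates the target membrane. C6, C7, C9 and the α and β chains of C8 belong to one family of pore-forming proteins, while the γ chain of C8 is a small lipocalin. Terminal pathway activity in mouse serum is known to be higher in males than in females.

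The deposited values read as log2 expression, with array medians of 6.89 to 6.97. Onecut1 was lower on each HNF6KO array (8.67 to 9.32) than on any WT array (9.87 to 10.52), with a log2 change of -1.32 ± 0.18 (moderated SE, limma, adjusted p = 0.0273). Arrays 3 and 4 alone gave -1.80 (adjusted p = 0.00140) and arrays 1 and 2 alone -0.83, which did not pass (adjusted p = 0.171). The Onecut1 call was also lost in 5 of the 8 fits with a single array left out, those lacking WT array 1, 3 or 4 or HNF6KO array 3 or 4 (log2 changes of -1.34 to -1.23, adjusted p = 0.0633 to 0.0954), without HNF6KO arrays 3 and 4 together (-1.06, adjusted p = 0.0983), and without WT array 4 and HNF6KO array 2 together (-1.27, adjusted p = 0.105). Liver identity was clear on every array. The 7 of 8 hepatocyte markers measured, among them Alb, Ttr and Apoa1, averaged 13.28 to 13.33 on WT and 13.32 to 13.42 on HNF6KO arrays, and 0 of them passed the test. In 2 of the 7, Alb and Ttr, every HNF6KO array lay above every WT array, against 2.45% of all genes. Their log2 changes were 0.079 and 0.089. Markers of 6 other cell types with more than 1 measured gene were checked the same way as means of log2 values, and 0 of their genes passed. Kupffer cell markers (8 of 8 measured, such as Clec4f and Cd5l) averaged 7.58 to 8.82 in WT and 7.67 to 9.20 in HNF6KO, sinusoidal endothelial markers (7 of 7, such as Fcgr2b and Clec4g) 8.45 to 9.27 and 8.47 to 9.41, and stellate cell markers (7 of 7, such as Dcn and Reln) 8.14 to 8.57 and 8.17 to 8.61. Cholangiocyte (4 of 5, such as Sox9 and Krt7), neutrophil (5 of 5, such as Mpo and S100a9) and lymphocyte (4 of 5, such as Cd3e and Cd3d) markers lay below the array medians on average on all 8 arrays. The only erythroid marker measured, Alas2, lay at a log2 difference of -0.98 ± 0.19 and did not pass (adjusted p = 0.0925). All 8 Kupffer and all 7 sinusoidal endothelial markers had log2 changes above 0, with medians of 0.095 and 0.24 (all genes -0.015). Every other type with more than 1 measured gene had markers both above and below 0. In whole liver, fewer cells of a type and less RNA per cell cannot be told apart.

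Of the 10 members, 2 fell in HNF6KO (C6 and Mbl1), 1 rose (C2) and 7 did not pass the test. A gene was called at an adjusted p under 0.05 in limma, with Benjamini-Hochberg adjustment over all 19540 genes. Among all genes 0.241% were called lower, 0.159% higher and 0.399% in either direction. At an unadjusted p under 0.05, 4 members were lower and 1 was higher, against 5.21% and 4.30% of all genes (9.51% in either direction). In 3 members (C6, C8a and Mbl1) every HNF6KO array lay below every WT array, and in 1 (C2) above, against 3.21% and 2.45% of all genes (5.67% in either direction). The median log2 change was -0.042 over the members and -0.015 over all genes, with 6 members below 0 and 4 above. Changes ran from -2.44 for C8a to 0.38 for C2. No filter on low values was used, and all 10 members stayed in. The dimmest member value, that of C8a on HNF6KO array 4, still lay 1.03 above the median of its array.

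**Figure D1:**
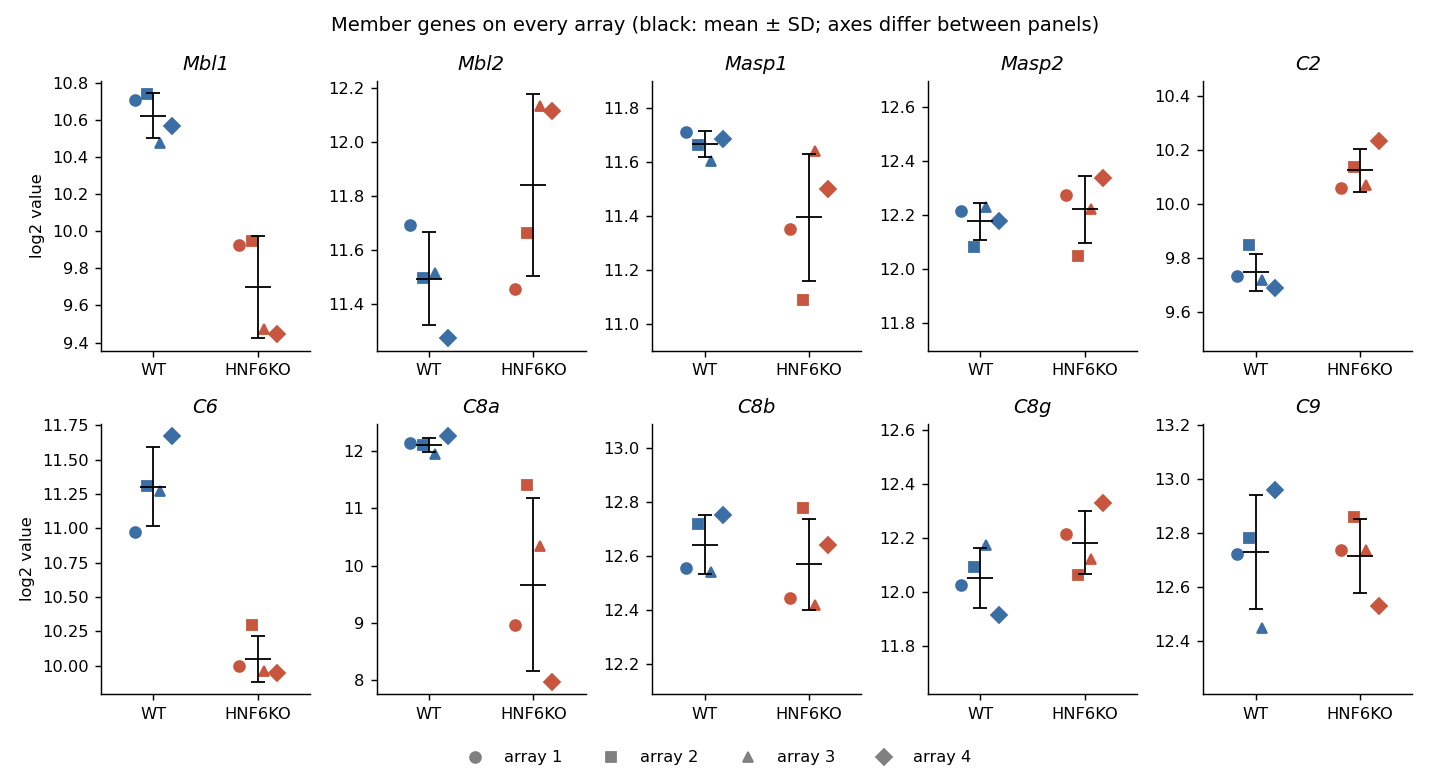
Log2 values (vertical axes, which differ between panels) of the 10 members on the 4 WT (blue) and 4 HNF6KO (red) arrays, with the array number as the symbol and the mean ± SD in black. The groups are apart in Mbl1, C6 and C8a (HNF6KO lower) and in C2 (HNF6KO higher), and the HNF6KO points of C8a run from 7.98 to 11.40.

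The mannose-binding lectins Mbl1 and Mbl2 encode the sugar-binding sensors of the pathway in mouse, which has both where humans have a single functional gene. In HNF6KO Mbl1 fell, while Mbl2 did not pass the test and lay above the WT range on 2 of the 4 arrays. The genes are on different chromosomes. Their promoters are shown because they hold a like stretch close to the transcript start. In the 250 bases before each start (RefSeq, GRCm38.p6, plus strand; Mbl1 chr14:41151206-41151455, Mbl2 chr19:30232678-30232927), the best ungapped match of 39 bases, in capitals, had 34 identical bases (87.2%). It ends 7 bases before the start in Mbl1 and 41 bases before it in Mbl2.
Mbl1: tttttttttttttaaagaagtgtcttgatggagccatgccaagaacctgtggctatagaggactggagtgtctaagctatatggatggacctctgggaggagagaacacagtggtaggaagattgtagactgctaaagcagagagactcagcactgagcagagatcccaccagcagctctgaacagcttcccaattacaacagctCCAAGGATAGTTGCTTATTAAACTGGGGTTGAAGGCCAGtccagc
Mbl2: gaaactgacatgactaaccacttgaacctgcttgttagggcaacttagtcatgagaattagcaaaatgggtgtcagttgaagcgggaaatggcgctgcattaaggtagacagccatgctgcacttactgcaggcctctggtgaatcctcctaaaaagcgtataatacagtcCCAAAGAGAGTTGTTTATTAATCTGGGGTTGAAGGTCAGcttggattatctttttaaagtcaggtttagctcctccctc

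Mbl1 read 10.70, 10.74, 10.48 and 10.57 in WT (arrays 1 to 4 in order) against 9.93, 9.95, 9.47 and 9.45 in HNF6KO. The groups did not overlap, with a gap of 0.53, and HNF6KO arrays 3 and 4 were the lowest. Group means ± SD (n = 4 each) stood at 10.62 ± 0.12 for WT against 9.70 ± 0.28 for HNF6KO. Mbl1 fell by 0.92 ± 0.13 (log2 ± SE), a 1.90-fold difference (limma, adjusted p = 0.0285, 95% interval -1.22 to -0.63). Arrays 1 and 2 alone gave -0.78 ± 0.07 (adjusted p = 0.0436) and arrays 3 and 4 alone -1.06 ± 0.07 (adjusted p = 0.00914). The call was lost without any 1 of WT arrays 1 to 4 or HNF6KO arrays 3 and 4 (log2 changes of -0.97 to -0.84, adjusted p = 0.0633 to 0.119), without HNF6KO arrays 3 and 4 together (-0.68, adjusted p = 0.0556), without WT array 4 and HNF6KO array 2 together (-1.02, adjusted p = 0.0645), and under cyclic loess (adjusted p = 0.0663) or quantile normalization (0.0676). Over the 24 alternative settings tried, the Mbl1 call held in 13 and was lost in 11, a threshold of 0.01 among them. In both groups Mbl1 was lowest on arrays 3 and 4, the arrays with the highest Kupffer, sinusoidal endothelial and stellate marker means of their group. The sinusoidal endothelial means were 8.45, 8.67, 9.27 and 9.06 in WT (arrays 1 to 4 in order) and 8.93, 8.47, 9.37 and 9.41 in HNF6KO. Onecut1 read 10.17, 9.87, 10.45 and 10.52 in WT (arrays 1 to 4 in order) against 9.32, 9.05, 8.67 and 8.70 in HNF6KO. On arrays 3 and 4 Onecut1 was thus lowest within HNF6KO and highest within WT. The parts of these markers and of Onecut1 in the Mbl1 result were not tested.

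Mbl2 read 11.69, 11.49, 11.51 and 11.27 in WT (arrays 1 to 4 in order) against 11.45, 11.66, 12.13 and 12.11 in HNF6KO. HNF6KO arrays 1 and 2 lay within the WT range, and arrays 3 and 4 lay above every WT array. The log2 change of 0.35 ± 0.16 did not pass (adjusted p = 0.540, 95% interval -0.014 to 0.71). Arrays 1 and 2 alone gave -0.036 ± 0.11 and arrays 3 and 4 alone 0.73 ± 0.09 (adjusted p = 0.961 and 0.0601). The Kupffer marker means were 9.20 and 8.91 on HNF6KO arrays 3 and 4 against 8.18 and 7.67 on arrays 1 and 2. On WT arrays 3 and 4 the Kupffer means were 8.62 and 8.82, and Mbl2 read 11.51 and 11.27. Onecut1 was also lowest on HNF6KO arrays 3 and 4 (8.67 and 8.70). The parts of these markers and of Onecut1 in the Mbl2 result were not tested.

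Set against each gene's own WT mean, the distance between the lectins was wider on each HNF6KO array than on any WT array. Mbl2 less Mbl1 was 0.12, -0.11, 0.16 and -0.17 in WT (arrays 1 to 4 in order). The same difference was 0.65, 0.84, 1.79 and 1.80 in HNF6KO, a mean of 1.27 ± 0.61 (SD, n = 4). On HNF6KO arrays 1 and 2 this distance came mostly from Mbl1, which stood at -0.69 and -0.67 from its WT mean while Mbl2 stood at -0.040 and 0.17 from its own. On arrays 3 and 4 both genes contributed.

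**Figure D2:**
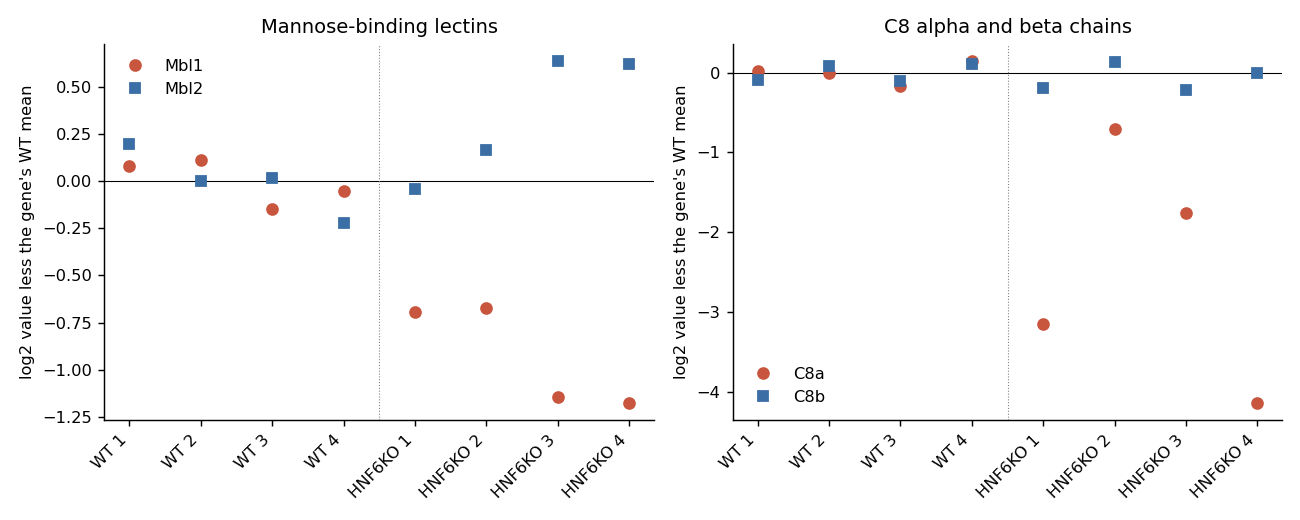
Log2 value less the gene's WT mean (vertical axis) on each of the 8 arrays (horizontal axis, dotted line between groups) for Mbl1 and Mbl2 (left) and for C8a and C8b (right). On the HNF6KO arrays Mbl1 lies at -1.18 to -0.67 and Mbl2 at -0.040 to 0.64, while C8a lies at -4.13 to -0.71 and C8b between -0.22 and 0.13.

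Of the 3 proteases of the pathway, C2 alone passed the test. C2, the serine protease precursor that is cut by MASP enzymes or by C1s, rose slightly in HNF6KO. Masp1, whose gene yields the initiating protease MASP-1 and the related MASP-3, and Masp2, encoding the main C4-cleaving enzyme MASP-2, had overlapping groups and did not pass.

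C2 read 9.73, 9.85, 9.72 and 9.69 in WT (arrays 1 to 4 in order) against 10.06, 10.14, 10.07 and 10.24 in HNF6KO. The HNF6KO arrays were all above the WT arrays, by a gap of 0.21 between the nearest values. Group means ± SD (n = 4 each) stood at 9.75 ± 0.069 for WT against 10.13 ± 0.081 for HNF6KO. C2 rose by 0.38 ± 0.06 (log2 ± SE), a 1.30-fold difference (limma, adjusted p = 0.0404, 95% interval 0.25 to 0.51). Arrays 1 and 2 alone gave 0.31 and arrays 3 and 4 alone 0.45, and the change passed in neither (adjusted p = 0.315 and 0.112). The C2 call held in 9 of the 24 alternative settings tried and was lost in 15, a threshold of 0.01 among them. The call was lost when any 1 array other than HNF6KO array 1 was left out (log2 changes of 0.34 to 0.41, adjusted p = 0.0824 to 0.136), without WT array 4 and HNF6KO array 2 together (0.36, adjusted p = 0.179), without HNF6KO arrays 3 and 4 together (0.35, adjusted p = 0.113), after median centring (adjusted p = 0.0523), with an intensity trend and robust variances (0.0760), and with the array number as a replicate block (0.0660).

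Masp1 read 11.71, 11.66, 11.60 and 11.69 in WT (arrays 1 to 4 in order) against 11.35, 11.09, 11.64 and 11.50 in HNF6KO. HNF6KO array 3 lay within the WT range and the others below it. The log2 change of -0.27 ± 0.11 did not pass (adjusted p = 0.450, 95% interval -0.51 to -0.031). The SD was 0.047 in WT and 0.24 in HNF6KO, a ratio of 5.03 that 709 of 19540 genes reached or passed. Masp2 lay between 12.08 and 12.23 on WT arrays and between 12.05 and 12.34 on HNF6KO arrays, which overlapped. Its log2 change was 0.045 ± 0.07 (adjusted p = 0.910, 95% interval -0.11 to 0.20).

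The terminal components differed widely among themselves, with log2 changes from -2.44 to 0.13, against -0.92 to 0.35 for the lectins and -0.27 to 0.38 for the proteases. C6 fell, with HNF6KO array 2 above the other HNF6KO arrays. C8a, the α chain of C8, was lower on every HNF6KO array but by very different amounts. C8b, C8g and C9 overlapped between the groups, and none of these 3 passed the test.

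C6, which binds C5b and starts the assembly of the pore, read 10.97, 11.31, 11.27 and 11.67 in WT (arrays 1 to 4 in order) against 9.996, 10.30, 9.96 and 9.95 in HNF6KO. The groups were 0.68 apart at their nearest values, and HNF6KO arrays 1, 3 and 4 lay close together (9.95 to 9.996). Group means ± SD (n = 4 each) stood at 11.30 ± 0.29 for WT against 10.05 ± 0.16 for HNF6KO. C6 fell by 1.25 ± 0.14 (log2 ± SE), a 2.39-fold difference (limma, adjusted p = 0.0111, 95% interval -1.57 to -0.94). Arrays 1 and 2 alone gave -0.99 ± 0.15 (adjusted p = 0.154) and arrays 3 and 4 alone -1.52 ± 0.13 (adjusted p = 0.0191). Over the 24 alternative settings tried, the C6 call held in 20 and was lost in 4, a threshold of 0.01 among them. The call was lost without WT array 2 (-1.25, adjusted p = 0.0570) and without HNF6KO arrays 3 and 4 together (-1.16, adjusted p = 0.0805), and it held without WT array 4 and HNF6KO array 2 together (-1.21, adjusted p = 0.00997).

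C8a read 12.13, 12.10, 11.95 and 12.25 in WT (arrays 1 to 4 in order) against 8.96, 11.40, 10.35 and 7.98 in HNF6KO. The WT arrays were tightly grouped, all HNF6KO arrays were below them, and array 4 was the lowest and array 2 the highest of the HNF6KO arrays. Group means ± SD (n = 4 each) stood at 12.11 ± 0.13 for WT against 9.67 ± 1.51 for HNF6KO. The log2 change of -2.44 ± 0.62 (SE), 5.42-fold, was the largest of any member and did not pass (limma, adjusted p = 0.207, 95% interval -3.84 to -1.03). Among the HNF6KO arrays alone the highest and lowest differed by 3.43 on the log2 scale, or 10.8-fold. An HNF6KO SD as large or larger was seen in 11 of 19540 genes with C8a among them, and a ratio of HNF6KO to WT SD as large or larger (11.9 for C8a) in 57. The median SD over all genes was 0.080 in WT and 0.11 in HNF6KO. Without HNF6KO array 2 the change was -3.02 ± 0.46 and passed (adjusted p = 0.0499), and over the other alternatives it ran from -2.97 to -1.87 with adjusted p from 0.0734 to 0.493.

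**Figure D3:**
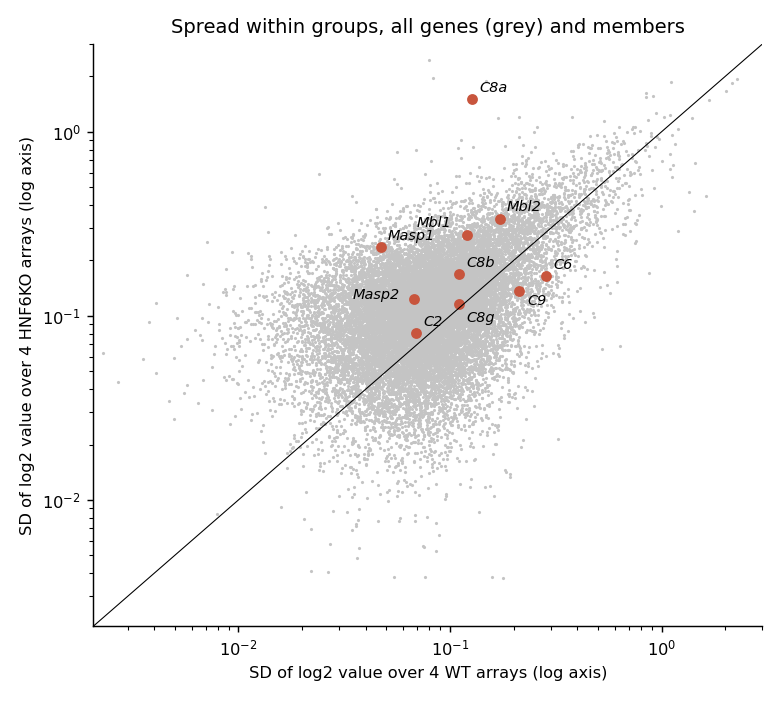
SD of log2 values over the 4 WT arrays (horizontal) and the 4 HNF6KO arrays (vertical), both on log axes, for 19540 genes (grey) and the 10 members (red), with the line of equal SD. C8a stands far above the line at 0.13 and 1.51, and C6 and C9 lie below it.

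The other chains of C8 overlapped between the groups. C8b, encoding the β chain, is the nearest protein-coding neighbour of C8a on chromosome 4 by gene order (GRCm38.p6), with 0 protein-coding genes between them. C8b lay between 12.54 and 12.75 on WT arrays and between 12.42 and 12.78 on HNF6KO arrays. The groups overlapped, with a log2 change of -0.072 ± 0.09 (adjusted p = 0.881, 95% interval -0.28 to 0.13). C8g, encoding the γ chain, lay between 11.91 and 12.18 in WT and between 12.06 and 12.33 in HNF6KO, again with overlap, and its log2 change was 0.13 ± 0.08 (adjusted p = 0.656, 95% interval -0.041 to 0.30). C9, whose product forms the wall of the pore, lay between 12.45 and 12.96 in WT and between 12.53 and 12.86 in HNF6KO, inside the WT range. The log2 change of C9 was -0.012 ± 0.11 (adjusted p = 0.988, 95% interval -0.26 to 0.24).

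The promoters of C6 and C8a are shown as those of the terminal genes that were lower on every HNF6KO array. Windows of 250 bases before the start were found for 8 members in RefSeq (GRCm38.p6), with a pair of starts for C8g and none for C2 and Masp1. They were searched on both strands for ATTGAT and ATCGAT (cores bound by HNF6), TTCNNNGAA (STAT5) and the letters TTGCNNCAA. Of the HNF6 cores searched for, a match was found in 1 of the 8 members, C8a, as ATCAAT, 126 to 121 bases before the start. Other forms of the core were not searched for, so the remaining members are not shown to lack one. The core ATTGAT stood in 6.72% of all 32851 windows of that length and ATCGAT in 0.728%. The letters TTCNNNGAA stood in the windows of C8a (228 to 220 bases before the start) and Masp2 (53 to 45), and in 7.02% of all windows, and TTGCNNCAA in that of C6 (186 to 178) and in 1.74% of all windows. A match of letters is not evidence of binding. The capitals mark the HNF6 core in C8a (chr4:104876399-104876648, minus strand) and the letters TTGCNNCAA in C6 (chr15:4726960-4727209, plus strand).
C8a: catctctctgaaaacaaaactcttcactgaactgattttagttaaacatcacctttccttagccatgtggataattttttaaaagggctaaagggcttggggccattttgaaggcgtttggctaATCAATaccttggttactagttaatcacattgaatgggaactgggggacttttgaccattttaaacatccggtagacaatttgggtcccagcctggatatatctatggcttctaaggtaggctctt
C6: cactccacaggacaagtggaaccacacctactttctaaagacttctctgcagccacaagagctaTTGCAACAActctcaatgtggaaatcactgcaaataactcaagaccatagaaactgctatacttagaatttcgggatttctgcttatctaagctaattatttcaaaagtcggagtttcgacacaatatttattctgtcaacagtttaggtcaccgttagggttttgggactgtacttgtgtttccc

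Within each group, 4 of the 5 terminal members and most acute phase genes were highest on the same arrays. Acute phase proteins are plasma proteins such as serum amyloid A that the liver makes in response to inflammation. The mean of the 21 measured acute phase genes was 11.39, 11.58, 11.47 and 12.76 in WT (arrays 1 to 4 in order) against 11.44, 12.45, 12.18 and 11.64 in HNF6KO. It was highest on WT array 4 and on HNF6KO array 2. C6, C8a, C8b and C9, the 4 members of the pore-forming family, were each highest on these same arrays. That held for 14 of the 21 acute phase genes and for 5.35% of all genes. C8g was lowest on both, as were 6.77% of all genes. C7, of the same family but not a member, was highest on WT array 3 (6.37) and HNF6KO array 4 (6.60), below the array medians. In WT the lead of C8b on array 4 was small, at 0.11 above its group mean against 0.077 on array 2. Grouping the members this way was chosen after their values were seen. C8a lay 1.73 above its HNF6KO mean on array 2 and 0.68 above it on array 3, and stood at -0.71 and -1.70 from it on arrays 1 and 4. In WT, C8a on array 4 lay only 0.14 above its group mean, while the acute phase mean lay 0.96 above. The part of the acute phase genes in these results was not tested. Without WT array 4 and HNF6KO array 2, an alternative added after the data were seen, 1 member fell (C6) and 0 rose in limma, and C8a stood at a log2 difference of -2.97 ± 0.52 (adjusted p = 0.120).

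**Figure D4:**
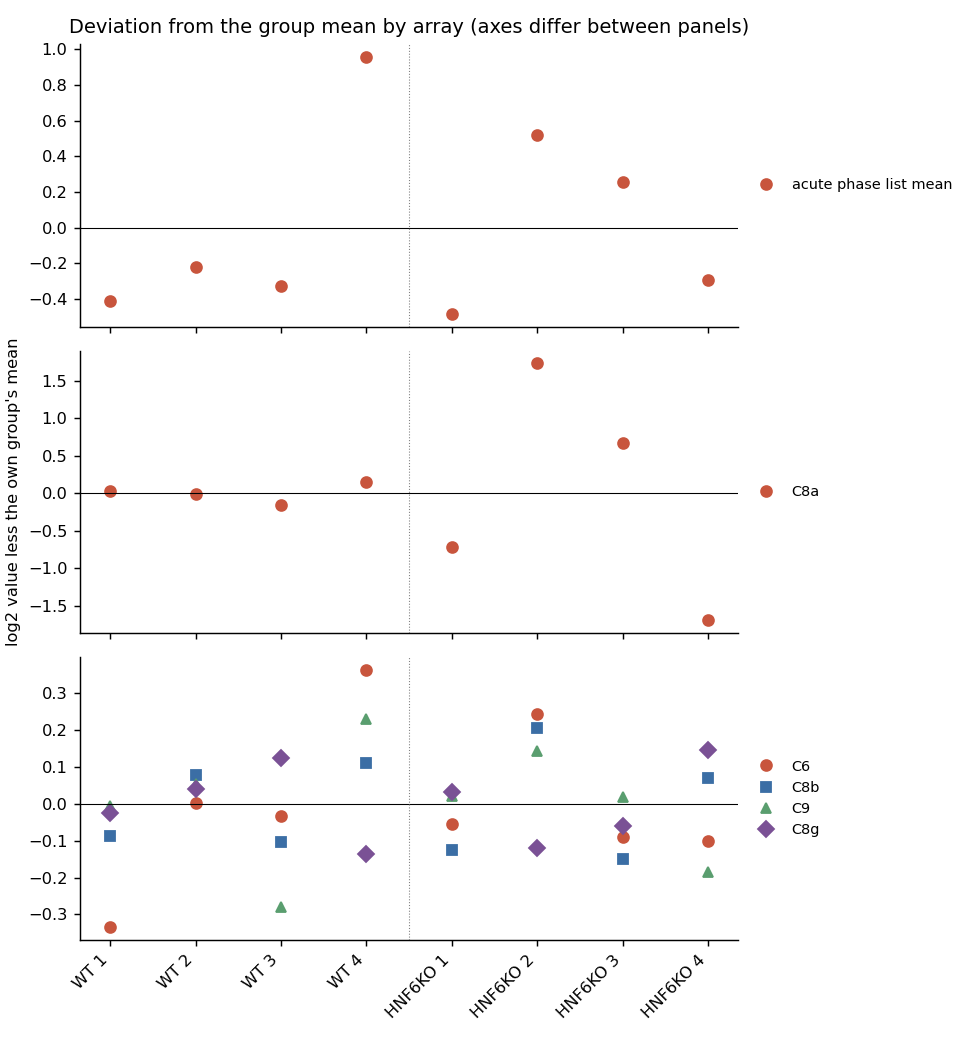
Log2 value less the mean of the array's own group (vertical axes, which differ between panels) on each array for the mean of 21 acute phase genes (top), C8a (middle) and the other terminal members (bottom). WT array 4 and HNF6KO array 2 are the highest of their groups for the acute phase mean, C6, C8a, C8b and C9, and the lowest for C8g.

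No other complement gene of those measured was called. Of 42 measured, out of 48 listed, 0 passed in limma, and at an unadjusted p under 0.05, 2 were lower and 1 was higher. Their log2 changes ran from -0.38 to 0.27 with a median of 0.0044. Between the lectin pathway and the pore stand C4b and Hc, which encodes C5, and also C3, which was not analysed here. The log2 difference was 0.022 ± 0.13 for C4b (adjusted p = 0.983) and 0.0020 ± 0.11 for Hc (adjusted p = 0.998). C7, the terminal component outside the member set, lay below the array medians on every array, at 5.83 to 6.37 in WT and 5.96 to 6.60 in HNF6KO, with a log2 difference of 0.12 ± 0.15 (adjusted p = 0.871).

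Of 5 other lectin pathway genes, the scavenger collectin Colec12 had the change of smallest p (-0.38 ± 0.11, adjusted p = 0.292), with its HNF6KO arrays all below WT. The soluble collectins Colec10 and Colec11, which also recruit MASP proteases, had log2 changes of 0.21 ± 0.21 and 0.22 ± 0.11. Among 9 classical pathway genes, the C1r-like protease C1rl (-0.20 ± 0.06, adjusted p = 0.257) had the smallest p, and the proteases C1s1 (-0.21 ± 0.12) and C1s2 (-0.090 ± 0.07) followed. C1qa, C1qb and C1qc, made by macrophages, had log2 changes of 0.18, 0.095 and 0.019. The alternative pathway genes Cfb and Cfp had log2 differences of -0.032 ± 0.06 and 0.069 ± 0.28. Of 15 inhibitors, Vtn (-0.080 ± 0.06), Clu (-0.071 ± 0.06) and Cpn1 (-0.067 ± 0.05) had the smallest p, and of 9 receptors Cd93 (0.23 ± 0.10), Cr2 (-0.049 ± 0.05) and C5ar2 (0.057 ± 0.08). Coagulation factors and inhibitors, also secreted by hepatocytes, held 0 called of 21 measured with a median log2 change of 0.0011, and F11 came nearest (-0.74 ± 0.12, adjusted p = 0.0510). The 21 acute phase genes held 0 called with a median of 0.038, and Crp came nearest (-0.68 ± 0.13, adjusted p = 0.0888).

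**Figure D5:**
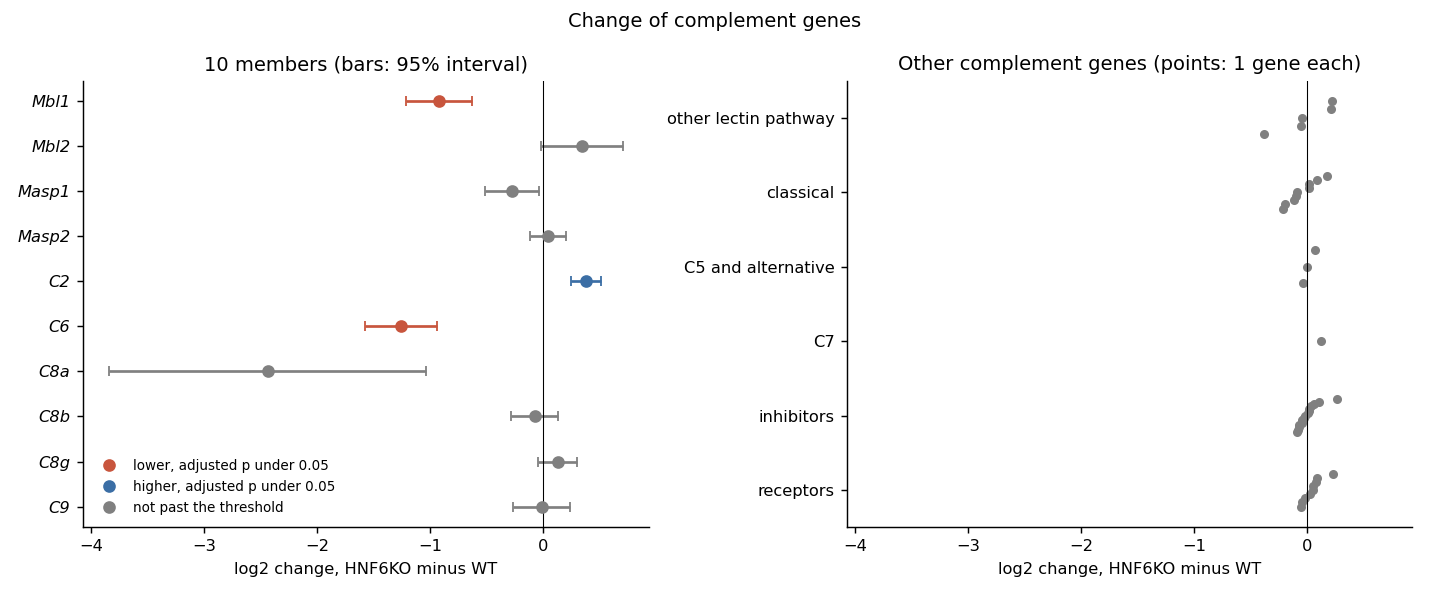
Log2 change, HNF6KO minus WT (horizontal axis), of the 10 members with 95% intervals (left) and of 42 other complement genes by group, 1 point each (right). C6 and Mbl1 (red) lie to the left and C2 (blue) to the right of 0, C8a has the widest interval, and the other genes lie between -0.38 and 0.27.

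The genes whose array pattern was most like that of C6 and Mbl1 were found by the smallest root mean square difference of log2 values, each gene set to a mean of 0 over the 8 arrays. For C6 these were Hao1, the peroxisomal glycolate oxidase (0.24), Cyp4f14, a cytochrome P450 of fatty acid and leukotriene hydroxylation (0.25), and Onecut1 itself (0.26). For Mbl1 they were Cyp4f14 (0.11), Nlrp6, a NOD-like receptor (0.11), and Hao1 (0.16). Hao1 read 11.31 to 11.43 on WT arrays and 10.40 to 10.48 on HNF6KO arrays, and fell by 0.92 ± 0.05 (log2, adjusted p = 1.35e-04). Cyp4f14 fell by 0.95 ± 0.11 (adjusted p = 0.0111) and Nlrp6 by 0.77 ± 0.13 (adjusted p = 0.0489). The measure counts the difference between the groups, so the fall of all these genes follows from how they were chosen. Spread within a group could still differ, with a WT SD of 0.29 for C6 and 0.052 for Hao1.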

How the data were processed

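Gene expression was measured on 8 Affymetrix arrays of mouse liver total RNA (4 WT, 4 HNF6KO), with Trizol extraction and biotin labelling per the labels' protocols. The authors deposited 1 value per probe set and array, read here as log2 expression from their range (3.69 to 14.1). The sources used here do not state the base, background correction or normalization, and a shift of most transcripts may have been removed.

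Of 22725 probe sets, 21113 had 1 gene symbol in the platform annotation, 43 several and 1569 none here. The brightest by mean over 8 arrays stood for a gene, leaving 19540 genes. The 2 groups were compared by limma 3.58.1 under R 4.3.3 (lmFit, eBayes), with Benjamini-Hochberg adjustment over all genes. The named genes are the members, Onecut1, the partners C4b, Hc and C7 (C3 was not analysed here), in each complement list those called and the 3 with the smallest p, the 3 genes most like C6 and Mbl1, and Alb, Ttr, Apoa1 and the brightest 2 markers of each other cell type. Members and lists were chosen with earlier results of these data known. C1qa, C1qb, C1qc, Crp and F11 were named after their values were seen.

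On simulated data with 200 genes changed, the limma step recovered 72.0%, 94.0%, 98.0% and 100.0% of genes with log2 sizes of 0.5, 1, 2 and 4 (50 genes each) and called 12 of 19340 unchanged ones. The simulated noise was independent, with the same SD in both groups. Real genes can differ from that, as C8a did (SD 0.13 in WT and 1.51 in HNF6KO), so these shares may not hold for them. The 4 arrays per group limit the precision. Other normalizations, variance models, filters, thresholds, probe set choices, blocks and left-out arrays were tried. Promoter windows are from RefSeq.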

Additional observations from a re-analysis of the deposited data

Results flagged for a closer look

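C6 on HNF6KO array 2 stood apart from the other HNF6KO arrays. It read 10.30 there, and the nearest of the other 3 arrays read 9.996. The gap made up 0.863 of the range of the group, above the critical value of Dixon's test for 4 values. That array still lay below the lowest WT array (10.97). Among 22 groups of 4 arrays tested (the 10 members and Onecut1, in WT and HNF6KO) this was the only one past that value, and chance gives about 1 in 20.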

How the results depend on the processing

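Of the counts, 78 genes were called in all, with 2 members lower and 1 higher. The 78 became 202 with array quality weights, 14 at a threshold of 0.01, 162 at 0.1, 245 with a term that separates arrays 1 and 2 from the other two of each group, 22 within arrays 1 and 2, 19 without HNF6KO arrays 3 and 4, and 36 without WT array 4 and HNF6KO array 2. The 2 lower members became 1 after quantile normalization, cyclic loess, within arrays 1 and 2, and without WT array 4 and HNF6KO array 2, and 0 at 0.01 and without HNF6KO arrays 3 and 4. The 1 higher member (C2) became 0 after median centring, with an intensity trend and robust variances, at 0.01, within arrays 1 and 2, within arrays 3 and 4, without HNF6KO arrays 3 and 4, and without WT array 4 and HNF6KO array 2. Leaving out 1 array at a time gave 16 to 79 genes, 0 to 3 lower members and 0 to 1 higher, with 0 lower members without WT array 2 and 3 (C8a added) without HNF6KO array 2. A smaller sample is part of these changes, and other causes were not tested.

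With the array number as a replicate block, 125 genes and 0 higher members were called, C2 having adjusted p = 0.0660. The numbers did not qualify as pairs. The correlation of deviations from the group means over genes was 0.439, 0.167, 0.506 and 0.0233 for numbers 1 to 4, and WT array 2 correlated best with HNF6KO array 1 (0.351). WT arrays 1 and 2 correlated positively with HNF6KO arrays 1 and 2 (0.167 to 0.439) and negatively with arrays 3 and 4 (-0.500 to -0.209). WT array 3 did the reverse (-0.421, -0.409, 0.506 and 0.445 with HNF6KO arrays 1 to 4). WT array 4 had -0.303, 0.0248, 0.317 and 0.0233. The cause of this split was not tested.

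C6, Mbl1, C2, C8a, C8b, C8g, Masp1 and Onecut1 kept their direction in each alternative run. Mbl2 was at -0.036 within arrays 1 and 2, and Masp2 at -0.014 without HNF6KO arrays 3 and 4. C9 was at 0.047 within arrays 1 and 2, 0.072 without HNF6KO arrays 3 and 4, 0.017 without WT array 4 and HNF6KO array 2, and -0.11 to 0.065 with 1 array left out. None of these was called, and the cause was not tested.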

Other observations

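The acute phase genes differed widely between arrays of the same group. Saa1, a serum amyloid A, read 7.52, 9.40, 8.38 and 12.15 in WT (arrays 1 to 4 in order) against 8.82, 12.23, 10.65 and 8.76 in HNF6KO. Lcn2, encoding an iron-scavenging lipocalin, read 8.80, 8.80, 9.63 and 13.31 on the WT arrays and 8.37, 12.24, 11.94 and 9.70 on the HNF6KO arrays. Apcs, encoding serum amyloid P component, read 10.32, 10.17, 9.43 and 11.88 on the WT arrays and 9.69, 11.55, 10.16 and 8.64 on the HNF6KO arrays. On the HNF6KO arrays, Saa1 and Apcs had the same order as C8a, from array 4 up through arrays 1 and 3 to array 2. That order held for 8 of the 21 acute phase genes and for 1.98% of all genes. By contrast, 11 of the 21, Lcn2 among them, were lowest on HNF6KO array 1, as was the mean of the list. Of all 19540 genes, 4209 were lowest on that array. These genes were chosen after their values were seen.

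The same likeness measure, run for C8a after its values were seen, gave Slc41a2, a magnesium transporter (0.83), the vasopressin receptor Avpr1a (0.83) and the receptor Adgrf1 (0.91). These differences are much larger than those for C6 and Mbl1. The direction of these genes again follows from how they were chosen. The log2 differences were -1.53 ± 0.22 for Avpr1a (limma, adjusted p = 0.0315), -1.30 ± 0.45 for Slc41a2 (adjusted p = 0.372) and -1.32 ± 0.36 for Adgrf1 (adjusted p = 0.239). Slc41a2 read 9.65 on HNF6KO array 2 and 7.52 to 7.89 on the other HNF6KO arrays.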
